A study of Mus musculus with 27 samples.

Results

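The genes described are those of the respiratory chain, the set of enzyme complexes in the inner mitochondrial membrane that pass electrons to oxygen. They were taken by symbol from the GRCm38 gene names: the Nduf genes of the a, b, c, s and v series, Sdha to Sdhd, all Uqcr genes, Cox4 to Cox8 and the mitochondrially encoded Nd, Co, Cytb and Atp genes. Pseudogenes were left out, which removed 3 symbols. The rule gave 79 of 41388 genes, of which 66 are encoded in the nucleus and 13 in mitochondrial DNA. By complex, 36 nuclear genes belong to complex I, 4 to complex II, 8 to complex III and 18 to complex IV, and the mitochondrial ones are 7 of complex I, 1 of complex III, 3 of complex IV and 2 of ATP synthase. Genes were placed by symbol, so Ndufa4, today usually counted with complex IV, stands under complex I.

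Complex I takes electrons from NADH, complex II from succinate, and both hand them to ubiquinone. Complex III moves them on to cytochrome c, and complex IV gives them to oxygen. Complex II is built from nuclear genes alone, whereas complexes I, III and IV and ATP synthase need subunits from both genomes. In the liver the chain drives gluconeogenesis, urea synthesis and fatty acid oxidation, and hepatocytes are rich in mitochondria.

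Liver RNA came from 27 ovariectomized female C57BL/6 mice with an age label of 120 days, 3 for each of 9 groups. The treated mice received TCDD, a dioxin that activates the aryl hydrocarbon receptor (AhR), at 8 doses (0.01, 0.03, 0.1 and 0.3 µg/kg, then 1, 3, 10 and 30 µg/kg), and the controls received sesame oil vehicle alone. Dosing was by gavage over 92 days. The labels give 1 dose in 4 days, but the treatment label also says daily, so the total dose received is uncertain. Every mouse, vehicle included, had been ovariectomized. The series is about metabolic reprogramming of the fibrotic liver over dose. Each dose was therefore set against vehicle. A second comparison used the rank of the dose, counted from 0 for vehicle to 8 for 30 µg/kg.

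The counts per library came to 434011 in the second 0.3 µg/kg library and ran from 11050391 to 30873586 in the other 26. Levels are CPM, the count of a gene relative to the total of its library after TMM scaling, which gives each library a factor against differences in composition. Cyp1a1, the classic AhR target and the check of the treatment, stood at 6938, 7943 and 6721 CPM in the 30 µg/kg livers, against 3.69, 3.19 and 2.49 CPM in vehicle livers. Hepatocyte markers were abundant in every group. At 30 µg/kg 10 of 12 of them were lower and none higher, and their summed level was 65606 to 111226 CPM, against 138097 to 254776 CPM in vehicle livers. All 8 neutrophil, 5 of 6 cholangiocyte, 4 of 8 stellate cell and 4 of 7 lymphocyte markers were higher at that dose. At 1 µg/kg all 8 neutrophil and all 9 macrophage markers were higher, beside 11.1% of all genes tested, and 1 of 12 hepatocyte markers was lower. The neutrophil markers summed to 5.25 to 1110 CPM in the 1 µg/kg livers, against 1.20 to 2.76 CPM in vehicle livers. For the macrophage markers it was 464 to 2027 CPM, against 313 to 479 CPM. In whole liver, fewer cells of a type and less RNA per cell cannot be told apart, and the part of these markers in the values below was not tested.

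The mitochondrial genes were the first limit on what could be read. Of the 13, 6 held almost no counts: mt-Co2, mt-Atp8, mt-Atp6, mt-Co3, mt-Nd3 and mt-Nd4l, which lie next to each other at chrM:7013-10173. Together they had 212 counts over all 27 libraries, while the other 7 had 28754074. A stretch of chromosome 1 carries near-identical copies of 5 of them as annotated pseudogenes. Compared base by base, mt-Co2 and its copy Gm28661 had 0 mismatches over 681 bases, mt-Co3 and Gm28437 0 over 783, mt-Atp6 and Gm10925 0 over 678 and mt-Nd4l and Gm10222 0 over 294. The pair of mt-Nd3 and Gm28438 had 1 mismatch over 345 bases, T3C, counted from 1 at the 5′ end of the coding sequence. The first 60 bases of that pair are shown with the mismatch in capitals. The start of mt-Cytb, which shared no 50-base stretch with another annotated transcript, is shown beneath. Copies outside annotated transcripts were not searched for. On GRCm38 mt-Nd3 is chrM:9459-9518 on the plus strand, Gm28438 chr1:24613060-24613119 on the minus strand and mt-Cytb chrM:14145-14204 on the plus strand:
mt-Nd3: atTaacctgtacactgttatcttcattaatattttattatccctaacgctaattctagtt
Gm28438: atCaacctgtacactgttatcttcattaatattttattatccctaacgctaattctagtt
mt-Cytb: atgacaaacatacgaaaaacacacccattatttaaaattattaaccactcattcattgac

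Alignments that matched more than 1 place were not counted, and they numbered 18007170 in the first vehicle library. The share of 50-base words of a transcript that also occur in another annotated transcript was high for 5 of the 6. It was 100% for mt-Co2, 99.9% for mt-Co3, 99.5% for mt-Atp6, 98.8% for mt-Nd4l and 98.0% for mt-Nd3. For mt-Atp8 the share was 0%, and it still had only 40 counts in all. The search covered annotated transcripts only. In mitochondrial DNA mt-Atp8 (chrM:7766-7969) lies between mt-Co2 and mt-Atp6. Their copies lie at chr1:24614885-24615565 and chr1:24613974-24614651, and the bases between these copies were not compared with mt-Atp8. The 0% therefore does not show that mt-Atp8 lacks a nuclear copy. Among the counted genes the share was 62.2% for mt-Nd4, 51.1% for mt-Co1, 8.19% for mt-Nd2, 7.61% for mt-Nd5 and 0% for mt-Nd1, mt-Nd6 and mt-Cytb. The levels of mt-Nd4 and mt-Co1 are thus uncertain. The transcripts of cytochrome c oxidase subunits II and III and of both mitochondrial ATP synthase subunits were not measured at any dose.

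**Figure D1:**
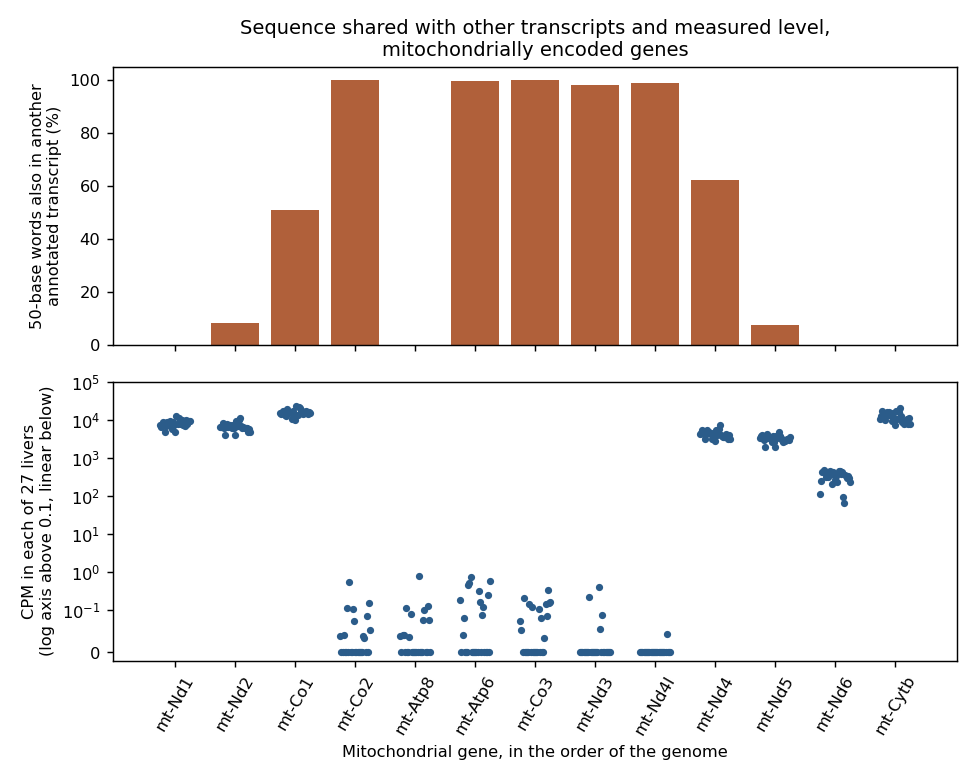
The upper panel plots, for the 13 mitochondrially encoded genes in genome order, the share of 50-base words (%) that also occur in another annotated transcript. The lower panel plots CPM in each of the 27 livers on a log axis that is linear below 0.1, and the 6 genes from mt-Co2 to mt-Nd4l stand near 0 in every liver.

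The low-count filter kept 68 of the 79 genes, 61 nuclear and 7 mitochondrial, among 15121 genes tested. Besides the 6 mitochondrial genes, the nuclear isoform genes Cox4i2, Cox6a2, Cox7b2, Cox8b and Cox8c were not tested, and Cox7b2 and Cox8c had no count in any library. Per kilobase of transcript 6 of the 7 counted mitochondrial mRNAs stood above every nuclear member, and mt-Nd6 stood below the nuclear Cox4i1 and Ndufa4. In vehicle livers mt-Cytb had 11664 ± 2729 CPM per kb, mt-Co1 9929 ± 840, mt-Nd1 7961 ± 1223, mt-Nd2 6819 ± 891, mt-Nd4 3403 ± 411, mt-Nd5 2043 ± 154 and mt-Nd6 504 ± 289 CPM per kb (SD, n = 3). In that order mt-Cytb and mt-Co1 did not differ beyond their spread, nor did mt-Nd1 and mt-Nd2. The highest nuclear members on this scale in vehicle livers were Cox4i1 with 580 ± 108, Ndufa4 with 549 ± 86.3 and Cox6a1 with 383 ± 23.7 CPM per kb (SD, n = 3).

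By genome, the summed levels at the top dose overlapped with those of vehicle livers. The counted mitochondrial genes summed to 45690 ± 3518 CPM at 30 µg/kg and 52060 ± 7001 CPM in vehicle livers, and the nuclear genes to 6611 ± 1252 and 7009 ± 556 CPM (SD, n = 3 each). In the mitochondrial sum the 30 µg/kg livers had 43165, 49708 and 44197 CPM, against 47507 to 60122 CPM in vehicle livers, so that 2 of the 3 stood below every vehicle liver. In the nuclear sum the third 30 µg/kg liver, at 5179 CPM, was below the lowest vehicle liver (6526 CPM). The mitochondrial sum was largest at 1 µg/kg, 63386 ± 15100 CPM, with a spread that covered the vehicle livers too. Both directions at 30 µg/kg turn with the scaling. As a log2 ratio to vehicle the mitochondrial sum was -0.19 and the nuclear sum -0.08 with TMM, and 0.25 and 0.35 with library totals alone, since the TMM factors of the 3 livers at 30 µg/kg were 1.33, 1.16 and 1.33. With RLE scaling, another way to set the factors, the nuclear sums were 7570, 7742 and 5540 CPM at 30 µg/kg. Vehicle livers had 6792, 6295 and 7394 CPM on that scale. The nuclear mean at 30 µg/kg was thus the higher one, also with upper-quartile scaling. The mitochondrial mean stayed the lower one with both, and all these groups overlapped.

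With TMM scaling, complex II was the one complex whose nuclear sum at 10 and 30 µg/kg lay below all vehicle livers, and this turned on the scaling. It summed to 843 ± 94.0 CPM at 30 µg/kg, between 736 and 914 CPM, against 1097 ± 44.3 CPM and 1060 to 1146 CPM in vehicle livers (SD, n = 3 each). At 10 µg/kg it was 954 ± 46.9 CPM, with 910 to 1003 CPM over the 3 livers, and at 1 µg/kg 879 ± 178 CPM. The 1 µg/kg livers, at 695 to 1051 CPM, also lay below all vehicle livers on this scale. At 3 µg/kg the sum was 1118 ± 92.0 CPM and overlapped with vehicle, and at 0.1 µg/kg it was 1194 ± 48.1 CPM, above every vehicle liver. The complex II level thus did not move steadily with dose. With library totals alone complex II had 979 to 1170.3 CPM at 30 µg/kg, against 970 to 1109 CPM in vehicle livers, which overlapped, and the log2 ratio of the means was 0.052, beside -0.38 with TMM. With RLE or upper-quartile scaling the 30 µg/kg livers still lay below all vehicle livers (log2 ratio -0.27 in each), while the 10 µg/kg livers overlapped with them. These other scalings were chosen after the sums had been seen. The tests of single genes below all use scaling factors and were not run on totals alone. Complex I summed to 2791 ± 539 CPM at 30 µg/kg and 3148 ± 267 CPM in vehicle livers, complex III to 1262 ± 252 and 1370 ± 98.2 CPM, and complex IV to 1715 ± 369 and 1394 ± 174 CPM (SD, n = 3 each), with overlap in all 3. With totals alone the complex IV sum at 30 µg/kg, 1717 to 2517 CPM, lay above all vehicle livers. The complex IV sum includes Cox6a1, the 1 member of that complex called higher at this dose (log2 fold change 1.11). The median log2 fold change of its 13 tested nuclear members was -0.03 with TMM.

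**Figure D2:**
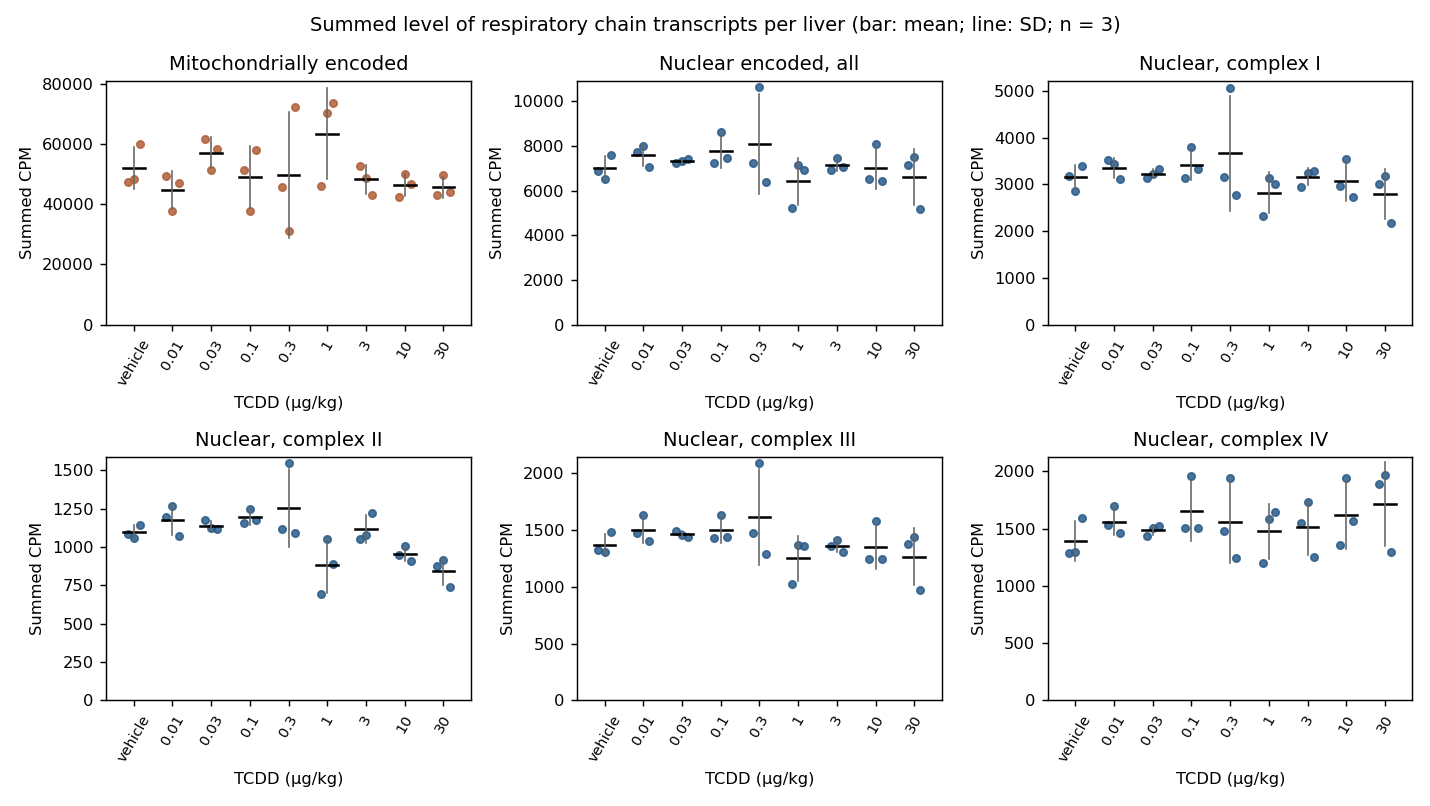
Each panel plots the summed CPM of a set of respiratory chain genes in every liver against the dose of TCDD in µg/kg, with vehicle at the left; points are livers, the horizontal bar is the mean and the vertical line the SD of 3 livers. On this TMM scale complex II at 30 µg/kg lies between 736 and 914 CPM, under all vehicle livers (1060 to 1146 CPM), but with library totals alone the groups overlap (979 to 1170.3 CPM against 970 to 1109 CPM), while the nuclear and mitochondrial totals overlap with vehicle.

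Gene by gene, few members changed. A gene was called at a Benjamini-Hochberg adjusted p below 0.05 in edgeR's quasi-likelihood test over all genes tested. At 0.01 µg/kg 0 of 68 members were called, as were 0% of all genes tested. At 0.03 µg/kg it was 0 members beside 0.0397% of all genes and at 0.1 µg/kg 0 members beside 0.192%. At these 3 doses edgeR also found 0 members at an unadjusted p below 0.05, and DESeq2 called 0.

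At 0.3 µg/kg edgeR called 0 members beside 1.18% of all genes, with 6 members at an unadjusted p below 0.05 and 0 calls by DESeq2. At 1 µg/kg 3 members were lower and none higher, 4.41% of the 68 beside 19.4% of all genes (11.1% higher and 8.21% lower). At 3 µg/kg edgeR called 0 members beside 10.1% of all genes, with 2 at an unadjusted p below 0.05 and 0 calls by DESeq2. At 10 µg/kg 1 member was higher, 1.47% beside 22.5% of all genes (11.3% higher and 11.2% lower). At 30 µg/kg 1 was higher and 6 were lower, 10.3% beside 37.4% of all genes (18% higher and 19.4% lower). From 1 µg/kg up the members' share was below that of all genes.

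These counts rest on single livers. The 7 members called at 30 µg/kg were 3 without the first 30 µg/kg liver, 12 without the second and 3 without the third. Among all genes, 4170 of 15380, 5901 of 15478 and 4636 of 15378 were called in these fits. The 3 called at 1 µg/kg were 0 without the first 1 µg/kg liver and 1 without the third, the first vehicle or the third vehicle liver. There, 1731 of 15507, 2197 of 15533, 2215 of 15494 and 1863 of 15477 genes were called. The 1 called at 10 µg/kg was 0 without the second 10 µg/kg liver, beside 2460 of 15566 genes. Without the first 0.3 µg/kg liver 1 member was called at 0.3 µg/kg, beside 240 of 15564 genes. Without the third 3 µg/kg liver it was 1 at 3 µg/kg, beside 949 of 15469 genes.

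The size of the changes at 30 µg/kg was small as well. The median absolute log2 fold change was 0.24 over the 68 members and 0.44 over all genes tested, with a median standard error of 0.22 and 0.23. A log2 fold change of at least 1 in size was seen for 2 members, 2.94%, and for 3394 of all genes, 22.4%. The sign was mostly negative: 52 members had a negative and 16 a positive log2 fold change, with a median of -0.20 beside -0.01 over all genes. By complex the median log2 fold change of the nuclear members was -0.25 for complex I, -0.34 for complex II, -0.09 for complex III and -0.03 for complex IV, and over the 7 mitochondrial members it was -0.21. RLE scaling shifted the median of all genes at this dose to 0.10.

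**Figure D3:**
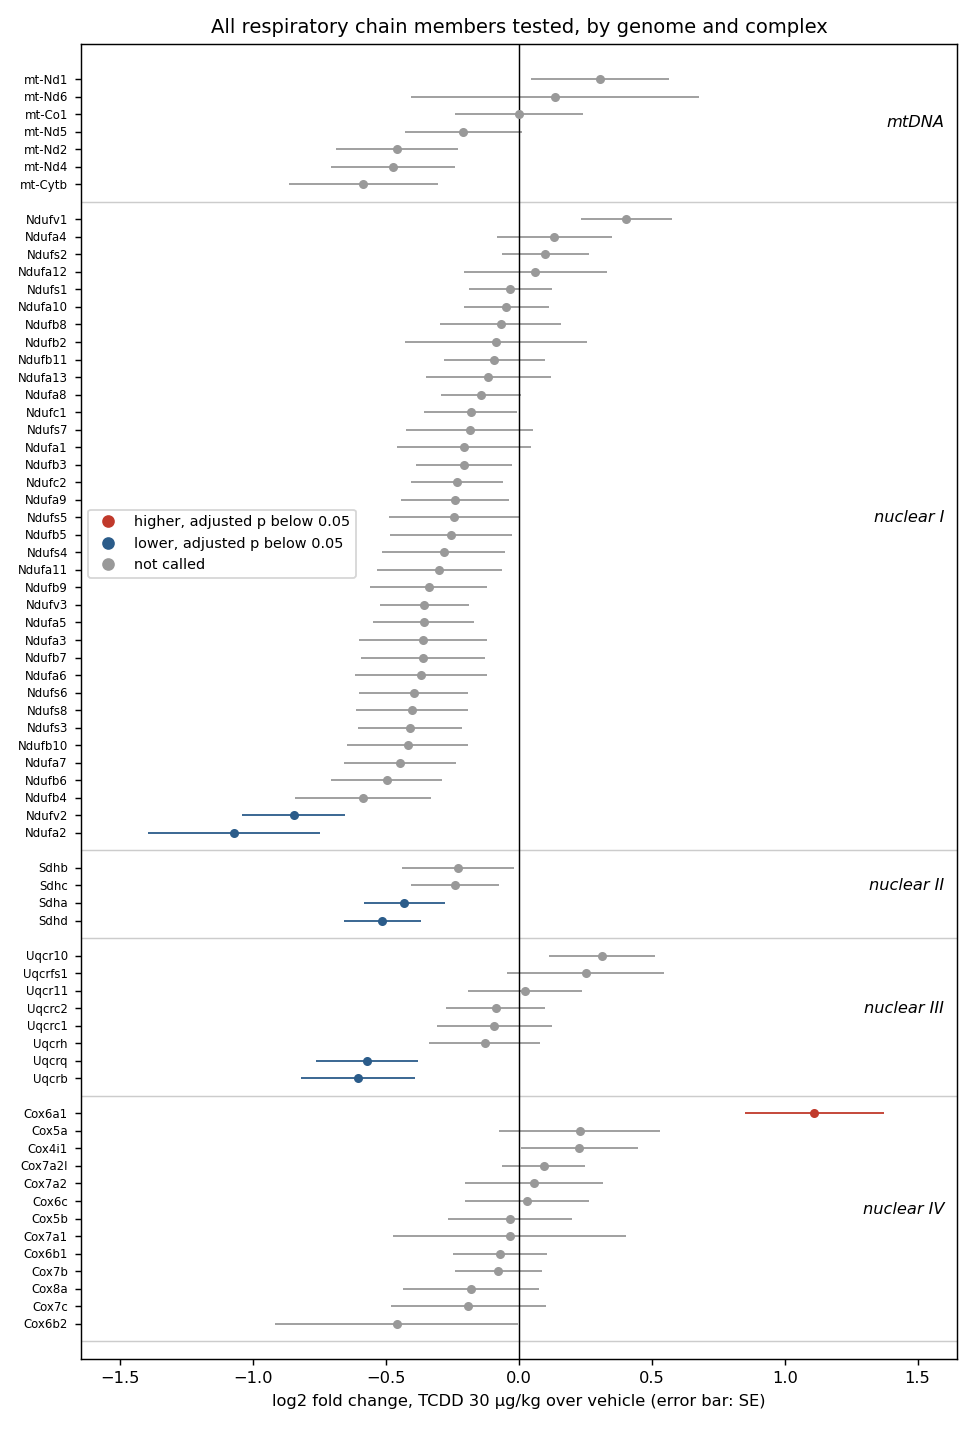
The plot gives the log2 fold change of each of the 68 members tested, 30 µg/kg over vehicle, on the horizontal axis, with the SE as error bar, grouped by genome and complex. Red marks the member called higher, Cox6a1, blue the 6 called lower, and grey the 61 not called, most of which lie left of 0.

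In complex I, 2 of 36 nuclear members fell at 30 µg/kg and none rose. Ndufv2 (ENSMUSG00000024099, chr17:66078638-66101559, minus strand) encodes an iron-sulfur subunit of the module that oxidizes NADH. It had 61.0, 55.9 and 46.7 CPM at 30 µg/kg, against 115, 87.7 and 91.7 CPM in vehicle livers. All 3 treated livers lay below all vehicle livers. The log2 fold change was -0.85 (SE 0.19), with an adjusted p of 0.00121 in edgeR. The means by dose were 98.1 CPM for vehicle, then 92.0, 89.5, 89.2, 100.2, 79.8, 81.9, 68.5 and 54.5 CPM from 0.01 to 30 µg/kg. None of its 50-base words occurs in another transcript, and the call held under all 7 other settings and without any single liver.

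Ndufa2, which encodes a small accessory subunit of complex I, had 32.7, 43.9 and 26.7 CPM at 30 µg/kg, against 96.0, 51.3 and 70.3 CPM in vehicle livers. The groups did not overlap, although the vehicle livers spread widely. Its log2 fold change was -1.07 (SE 0.32), with an adjusted p of 0.0115 in edgeR, and 11.5% of its exonic bases overlap with Tmco6 on the other strand, which makes its counts uncertain to that extent. The call was lost without the first vehicle liver (adjusted p = 0.0845), the first 30 µg/kg liver (0.0536) or the third (0.0732). Ndufv1, the partner of Ndufv2 that binds NADH and FMN, had 249, 245 and 168 CPM at 30 µg/kg, against 149, 159 and 192 CPM in vehicle livers. The groups overlapped, with a log2 fold change of 0.40 and, in edgeR, an adjusted p of 0.0657. With RLE scaling the adjusted p was 0.0189, with upper-quartile scaling 0.0258 and in DESeq2 0.00884. Ndufv1 was chosen after its values were seen, because these settings call it higher.

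At 1 µg/kg the complex I member that fell was Ndufs3, a core subunit of the arm that passes electrons to ubiquinone. It had 25.3, 35.0 and 28.7 CPM at 1 µg/kg, against 57.5, 40.7 and 38.7 CPM in vehicle livers, with no overlap. The log2 fold change was -0.62 (SE 0.20), with an adjusted p of 0.0269 in edgeR, and 39.7% of its 50-base words also occur in other transcripts. The adjusted p was 0.213 without the first vehicle liver, 0.135 without the first 1 µg/kg liver, 0.0861 without the third and 0.0726 with the 6 livers alone. At 30 µg/kg it had 37.4, 37.1 and 28.4 CPM and an adjusted p of 0.100.

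Complex II is succinate dehydrogenase, the enzyme that the chain shares with the tricarboxylic acid cycle. At 30 µg/kg 2 of its 4 genes fell. Sdhd (ENSMUSG00000000171, chr9:50596357-50603812, minus strand), a membrane anchor, had 174, 171 and 140 CPM at 30 µg/kg, against 240, 217 and 235 CPM in vehicle livers. No treated liver reached the lowest vehicle liver. The log2 fold change was -0.52 (SE 0.15), with an adjusted p of 0.00672 in edgeR. That call was lost only without the third 30 µg/kg liver (adjusted p = 0.0628), among the 7 other settings and the livers left out.

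Sdhd also fell at 1 µg/kg, where it had 136, 196 and 174 CPM, with a log2 fold change of -0.45 (SE 0.15) and an adjusted p of 0.0292 in edgeR. That call was lost with RLE scaling (adjusted p = 0.0526), upper-quartile scaling (0.0511), no filter (0.0935) and the 6 livers fitted alone (0.119), and without the first 1 µg/kg liver (0.199), the third (0.0641), the first vehicle liver (0.106) or the third (0.0896). By dose its means were 230.6 CPM for vehicle, then 275, 257, 248, 216, 169, 226, 189 and 161 CPM from 0.01 to 30 µg/kg. The level at 3 µg/kg stood among those of the low doses, and those at 1, 10 and 30 µg/kg below them.

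Sdha (ENSMUSG00000021577, chr13:74322254-74350280, minus strand), the flavoprotein that oxidizes succinate, had 377, 401 and 350 CPM at 30 µg/kg, against 499, 491 and 531 CPM in vehicle livers. The groups were well separated, with a log2 fold change of -0.43 (SE 0.15) and an adjusted p of 0.0272 in edgeR. That p passed 0.05 with RLE (0.101) or upper-quartile scaling (0.128), without a filter (0.0844), with the 6 livers alone (0.0797) and without any of 5 single livers (0.0523 to 0.125). Sdhc, the other anchor, had 162, 157 and 125 CPM at 30 µg/kg, against 170, 170 and 185 CPM in vehicle livers, which did not overlap. Its log2 fold change of -0.24 had an adjusted p of 0.264. Sdhb, the iron-sulfur subunit, had 164, 186 and 122 CPM, against 175, 183 and 196 CPM in vehicle livers. The groups overlapped (log2 fold change -0.23, adjusted p = 0.418 in edgeR).

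In complex III, 2 of 8 nuclear members fell at 30 µg/kg, both small subunits of the cytochrome bc1 complex. Uqcrq (ENSMUSG00000044894, chr11:53427922-53430831, minus strand) had 226, 278 and 149 CPM at 30 µg/kg, against 308, 307 and 355 CPM in vehicle livers. Its groups did not overlap, and the third 30 µg/kg liver was the lowest. The log2 fold change was -0.57 (SE 0.19), with an adjusted p of 0.0202 in edgeR. It lost its call with RLE (adjusted p = 0.0572) or upper-quartile scaling (0.0745), with the 6 livers alone (0.0891) and without the third vehicle liver (0.0878), the first 30 µg/kg liver (0.0571) or the third (0.190).

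Uqcrb (ENSMUSG00000021520, chr13:66900617-66905378, minus strand) had 33.9, 39.8 and 29.9 CPM at 30 µg/kg, against 60.8, 43.2 and 53.7 CPM in vehicle livers. The highest treated liver was close to the lowest vehicle liver. Its log2 fold change was -0.61 (SE 0.21), with an adjusted p of 0.028 in edgeR. Of its 50-base words, 43.4% also occur in transcripts of other loci, Gm16089 among them, so the level is uncertain. The adjusted p was 0.0651 with RLE scaling, 0.0683 with upper-quartile scaling and 0.0716 in DESeq2, and 0.0687 to 0.136 when the first or the third liver of either group was left out.

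Complex IV held the one member that rose. Cox6a1 (ENSMUSG00000041697, chr5:115345642-115348981, minus strand) is the form of subunit VIa that liver and most other tissues use. It had 518, 547 and 353 CPM at 30 µg/kg, against 207, 216 and 234 CPM in vehicle livers. Even the lowest treated liver stood above every vehicle liver. The log2 fold change was 1.11 (SE 0.26), with an adjusted p of 0.00158 in edgeR. The call held under all 7 other settings and without any single liver, with adjusted p between 0.000811 and 0.00888 when a liver was left out.

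At 10 µg/kg Cox6a1 had 311, 496 and 435 CPM, a log2 fold change of 0.92 (SE 0.26) and an adjusted p of 0.0122 in edgeR, which was 0.0626 without the second 10 µg/kg liver. From 0.1 µg/kg up each mean was above the one before: 219 CPM for vehicle, then 238, 237, 267, 272, 299, 325, 414 and 473 CPM from 0.01 to 30 µg/kg. At 3 µg/kg the livers had 352, 431 and 192 CPM, and the last of these lay under all vehicle livers. Another transcript holds 12.3% of its 50-base words. The rise was not a common one in complex IV. Cox4i1, the largest nuclear subunit, had 572, 571 and 374 CPM at 30 µg/kg, against 373, 399 and 524 CPM in vehicle livers, which overlapped (log2 fold change 0.23, adjusted p = 0.445 in edgeR). The ratio of Cox6a1 to Cox4i1 counts within a library was 0.906, 0.959 and 0.942 at 30 µg/kg, against 0.555, 0.541 and 0.446 in vehicle livers. That ratio was chosen after the values were seen and is given without a test.

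**Figure D4:**
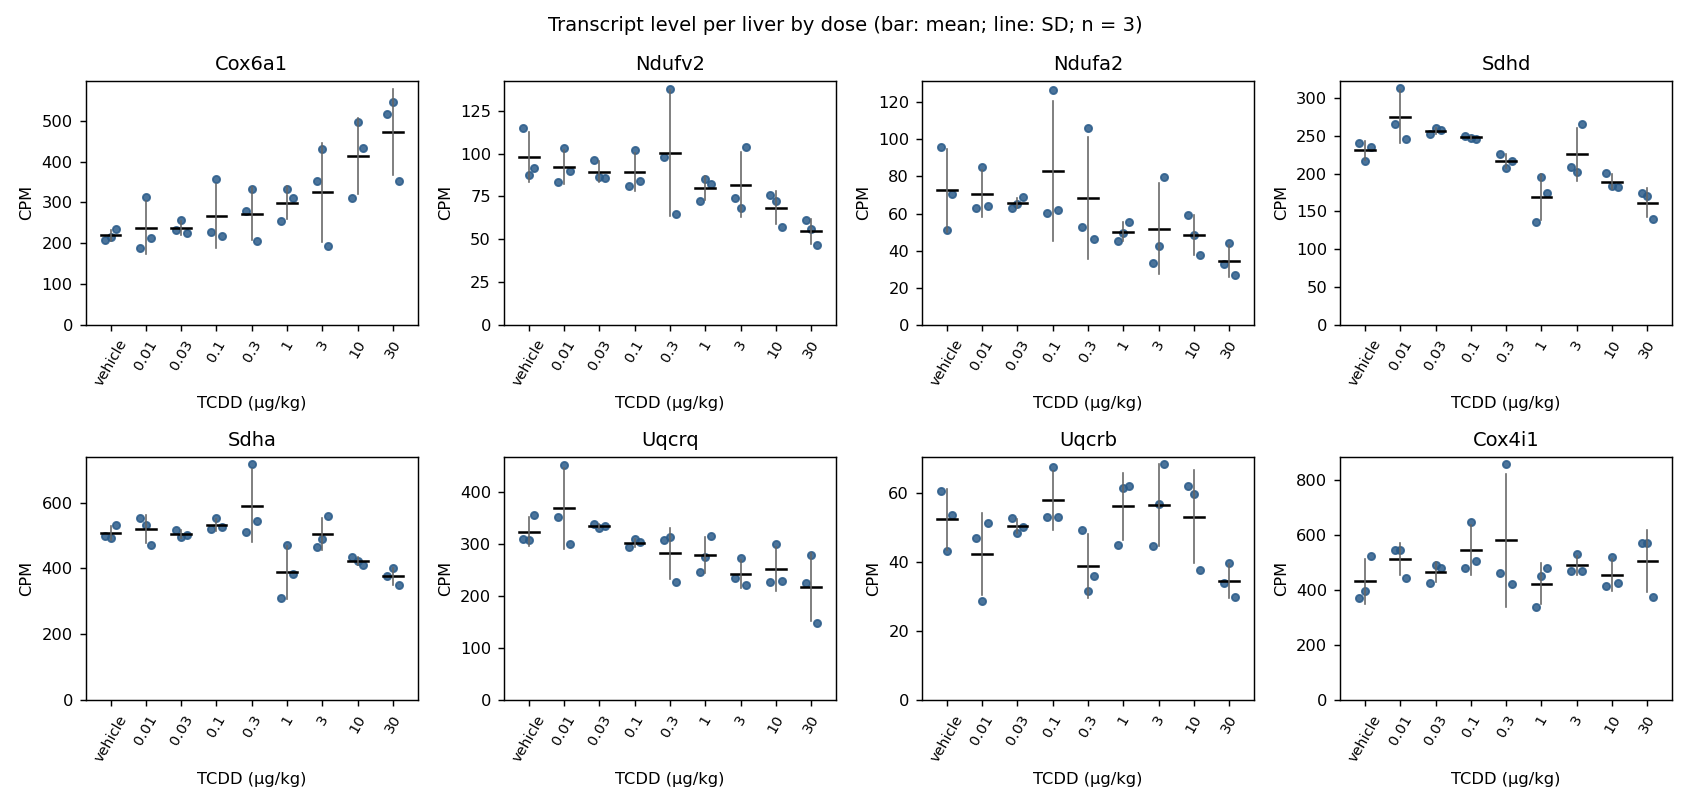
Each panel plots the CPM of a gene in every liver against the dose of TCDD in µg/kg, with vehicle at the left, for the 7 members called at 30 µg/kg and Cox4i1; points are livers, the horizontal bar is the mean and the vertical line the SD of 3 livers. Cox6a1 climbs to 473 CPM at 30 µg/kg, while Ndufv2 declines to 54.5 CPM.

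Over the dose rank, 1 member rose and 12 fell, 19.1% of the 68 beside 46.6% of all genes (23.3% in each direction). Slopes are log2 per dose step. Cox6a1 rose by 0.13 per step (SE 0.02), with an adjusted p of 1.71e-05 in edgeR. In complex I the 3 smallest p among the falls belonged to Ndufv2 (-0.08, adjusted p = 0.000657), Ndufa2 (-0.12, adjusted p = 0.00139) and Ndufa5 (-0.06, adjusted p = 0.00804), an accessory subunit of the peripheral arm. Sdhd had -0.08 (adjusted p = 0.000361), Sdha -0.05 (adjusted p = 0.0192) and Sdhc -0.04 (adjusted p = 0.037). In complex III it was Uqcrq (-0.08, adjusted p = 0.000206) and Uqcrh, the hinge protein (-0.05, adjusted p = 0.0435). Over the 27 fits that each left out a library, the calls of Ndufv2, Ndufa2, Ndufa5, Sdhd and Uqcrq held in all 27, that of Sdha in 24, that of Sdhc in 7 and that of Uqcrh in 6. Ndufa5 lost its call with upper-quartile scaling (adjusted p = 0.0507 in edgeR). Under the 10 other settings and subsets of libraries the call was lost in 4 for Sdha, in 9 for Sdhc and in 9 for Uqcrh.

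The only mitochondrial gene that fell over the dose rank was mt-Cytb, cytochrome b of complex III, with -0.07 per step (SE 0.03) and an adjusted p of 0.0462 in edgeR. Its call was lost in 18 of the 27 fits that left out a library and under 8 of the 10 other settings. The count of 13 members depends on the libraries used. Without all 30 µg/kg livers it was 6, beside 5265 of 14842 genes. It was 7 without the first 30 µg/kg liver, 6 without the third and 7 without the third 10 µg/kg liver. Among all genes, 6293 of 15380, 6528 of 15378 and 6734 of 15479 were called in these fits. The member count was 8 without the third vehicle liver, the first 0.01 µg/kg liver, any 0.03 µg/kg liver, the first or the third 0.1 µg/kg liver, the first 0.3 µg/kg liver or the first 3 µg/kg liver. Between 6885 of 15477 and 7147 of 15564 genes were called in those fits. The libraries of the vehicle to 0.1 and the 30 µg/kg groups carry one set of index sequences and those of the 0.3 to 10 µg/kg groups another, so index set and dose are partly confounded. Within the 0.3 to 10 µg/kg libraries 1 member was called, beside 974 of 14353 genes tested there. Within the other set it was 10 members, beside 6551 of 14894 genes. With the index set as a term 12 were called, beside 6669 of 15121 genes. Cox6a1 had an adjusted p of 0.139 within the 0.3 to 10 µg/kg libraries, 5.3e-05 within the other set and 1.79e-05 with the term, by edgeR. None of the 5 falls that held in all 27 fits was called within the 0.3 to 10 µg/kg libraries: the slope there was -0.11 for Ndufv2 (adjusted p = 0.416), -0.06 for Ndufa2 (0.784), -0.06 for Ndufa5 (0.711), -0.05 for Uqcrq (0.724) and 0.0026 for Sdhd (0.992), which changed sign. Within the other set 4 of the 5 were called, and Ndufa5 was not (adjusted p = 0.0681 in edgeR).

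None of the 7 mitochondrial mRNAs tested passed at 30 µg/kg in edgeR, with 1 of them at p below 0.05 before adjustment, and 0 were called by DESeq2. Their signs differed. For mt-Cytb, the livers had 7723, 11056 and 7889 CPM at 30 µg/kg, against 10637, 12633 and 16760 CPM in vehicle livers, and the groups overlapped (log2 fold change -0.59, SE 0.28, adjusted p = 0.103). Subunit 1 of complex I, mt-Nd1, had 9520, 9105 and 9626 CPM, against 7487, 6520 and 8849 CPM in vehicle livers. All 3 treated livers were above the vehicle livers (log2 fold change 0.31, adjusted p = 0.375 in edgeR).

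The proton-pumping subunits mt-Nd2 and mt-Nd4 lay on the other side. In 30 µg/kg livers mt-Nd2 had 4843, 5902 and 4697 CPM, against 6617, 6474 and 8143 CPM in vehicle livers (log2 fold change -0.46, adjusted p = 0.119 in edgeR). For mt-Nd4 it was 3145, 3895 and 3086 CPM at 30 µg/kg, against 4169, 4608 and 5293 CPM in vehicle livers (log2 fold change -0.47, adjusted p = 0.112 in edgeR). Neither pair of groups overlapped, though neither passed the test. The catalytic subunit of complex IV, mt-Co1, had 14473, 16523 and 15046 CPM at 30 µg/kg, against 15078, 14195 and 16749 CPM in vehicle livers, with a log2 fold change of 0.00. The remaining complex I genes, mt-Nd5 (-0.21, adjusted p = 0.48) and mt-Nd6 (0.14, adjusted p = 0.871), had overlapping groups. For mt-Nd6, the gene on the other strand of mitochondrial DNA, 333, 300 and 230 CPM at 30 µg/kg stood against 116, 254 and 416 CPM in vehicle livers.

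A ratio of 2 mitochondrial mRNAs within a library needs no scaling between libraries. These ratios were formed after the levels had been seen, share mt-Nd1 as denominator, and have no test. The ratio of mt-Cytb to mt-Nd1 counts was 0.811, 1.21 and 0.820 at 30 µg/kg, against 1.42, 1.94 and 1.89 in vehicle livers. At 10 µg/kg it averaged 1.16 ± 0.18 and also did not overlap with vehicle livers (1.75 ± 0.29), while at 1 µg/kg it was 1.62 ± 0.41 and did (SD, n = 3 each). The ratio of mt-Nd4 to mt-Nd1 was 0.330, 0.428 and 0.321 at 30 µg/kg, against 0.557, 0.707 and 0.598 in vehicle livers. For mt-Nd2 to mt-Nd1 it was 0.509, 0.648 and 0.488, against 0.884, 0.993 and 0.920 in vehicle livers.

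The ratio of mt-Co1 to mt-Nd1 moved less, with 1.52, 1.81 and 1.56 at 30 µg/kg, against 2.01, 2.18 and 1.89 in vehicle livers. For mt-Nd5 to mt-Nd1 it was 0.328, 0.321 and 0.376, against 0.455, 0.593 and 0.442 in vehicle livers. In each of these ratios the 30 µg/kg livers were below the vehicle livers. Lower doses were also below them in some: mt-Nd5 to mt-Nd1 at every dose from 0.3 µg/kg, and mt-Nd4 to mt-Nd1 at 3 and 10 µg/kg. The ratio of mt-Nd2 to mt-Nd1 was below at 0.03 (0.783 to 0.867), 0.3 and 10 µg/kg, but overlapped with vehicle at 0.01, 0.1, 1 and 3 µg/kg. With mt-Co1 as denominator, mt-Cytb had 0.534, 0.669 and 0.524 at 30 µg/kg, against 0.705, 0.890 and 1.00 in vehicle livers. RNAs kept in the nucleus or without the usual poly(A) tail, a sign of library state, summed to 2806 to 3542 CPM at 30 µg/kg and 2485 to 2821 CPM in vehicle livers. Their part in these ratios was not tested.

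**Figure D5:**
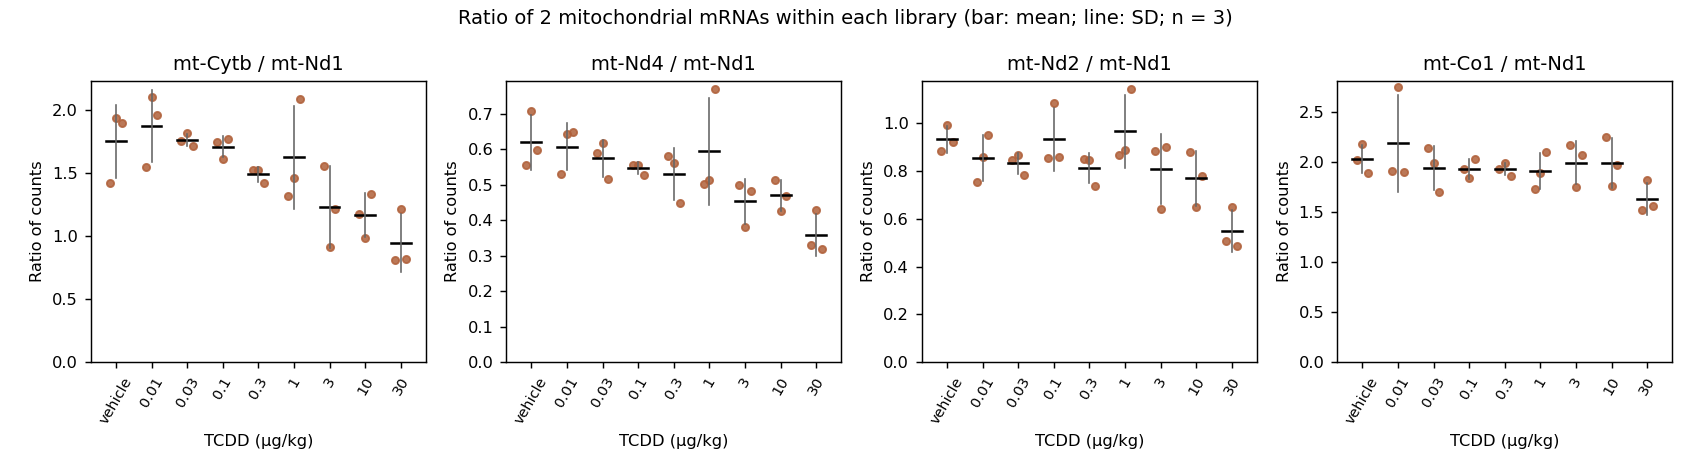
Each panel plots the ratio of the counts of 2 mitochondrial mRNAs in every library against the dose of TCDD in µg/kg, with vehicle at the left; points are livers, the horizontal bar is the mean and the vertical line the SD of 3 livers. The ratio of mt-Cytb to mt-Nd1 averages 0.948 at 30 µg/kg and 1.75 in vehicle livers.

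Complex IV has tissue isoforms, and their pattern checks what tissue was sampled. The common forms were all present. At 30 µg/kg Cox6b1 had 163 ± 28.7, Cox7a2 101 ± 29.1, Cox7b 94.1 ± 17.02 and Cox8a 107 ± 20.6 CPM, and in vehicle livers the same genes had 172 ± 31.4, 97.4 ± 32.2, 99.3 ± 11.5 and 121 ± 34.2 CPM (SD, n = 3 each). None of these was called. The testis form Cox6b2 had 0.126, 0.346 and 0.160 CPM at 30 µg/kg, against 0.298, 0.366 and 0.241 CPM in vehicle livers, and was not called.

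Cox7a1, the heart and muscle form of subunit VIIa, was called lower at 1 µg/kg, at a very low level. It had 0.297, 0.500 and 0.979 CPM at 1 µg/kg, against 0.933, 1.52 and 2.17 CPM in vehicle livers. The groups overlapped, with a log2 fold change of -1.37 (SE 0.48) and an adjusted p of 0.0464 in edgeR. It was 0.0568 with RLE and 0.0577 with upper-quartile scaling, 0.0531 with the replicate block, 0.0591 in DESeq2 and 0.103 with the 6 livers alone. Left out one at a time, the livers gave 0.0506 without the second 0.3 µg/kg, 0.0873 without the second vehicle, 0.192 without the first 1 µg/kg, 0.128 without the second 1 µg/kg and 0.216 without the third vehicle liver. That last liver was also the one with muscle transcripts: Cox6a2 had 1.93 CPM and Cox8b 0.843 CPM there, beside 46.4 CPM of Acta1 and 19.3 CPM of Mb. In the third 3 µg/kg liver Cox6a2 had 0.462 and Cox8b 0.27 CPM, beside 3.27 CPM of Mb. In all other livers both isoforms stayed at or below 0.218 CPM. The 10 muscle markers summed to 10.3 to 19.99 CPM at 30 µg/kg, where 5 of them were at 0. In vehicle livers they summed to 0.105, 0.112 and 136 CPM, the last in the third liver. All 30 µg/kg livers thus stood above the first and second vehicle livers and below the third.

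Promoters were read where members moved in opposite directions. RefSeq gave a promoter of 300 bases (250 before the start and 50 after, GRCm38.p6) for 53 of the 66 nuclear members, among 27025 promoters in all. Nuclear respiratory factors are known to bind many of these promoters. The core of the NRF1 motif, GCATGCG on either strand, occurred in 7 member promoters (13.2%) and in 3.64% of all promoters. The GABPA motif CCGGAAG, on either strand, occurred in 11 (20.8%) and in 9.12% of all. The core of the AhR response element, GCGTG on either strand, occurred in 28 (52.8%) and in 32.5% of all. The 3 motifs were searched without regard to overlap with each other. The promoters compared were not matched for base composition or expression, and no test was run, so these shares do not show an enrichment of sites.

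Of the 7 members called at 30 µg/kg, 4 had a promoter: Cox6a1, Ndufv2, Sdhd and Sdha. Cox6a1, the member that rose, and Ndufv2 and Sdhd, the falls with the smallest adjusted p, are shown. The 250 bases before each start are printed 5′ to 3′ with matches in capitals (Cox6a1 chr5:115348959-115349208, Ndufv2 chr17:66101560-66101809 and Sdhd chr9:50603850-50604099, all minus strand). In Cox6a1 the capitals are the NRF1 core, read on both strands with 1 base of shift from position -161, and a GABPA match at -16. In Sdhd they are 2 AhR cores at -76 and -37 and a GABPA match at -46. The promoter of Ndufv2 holds none of the 3 motifs, that of Cox6a1 no AhR core, and that of Sdha an AhR core alone. A match describes letters only, and binding was not measured.
Cox6a1: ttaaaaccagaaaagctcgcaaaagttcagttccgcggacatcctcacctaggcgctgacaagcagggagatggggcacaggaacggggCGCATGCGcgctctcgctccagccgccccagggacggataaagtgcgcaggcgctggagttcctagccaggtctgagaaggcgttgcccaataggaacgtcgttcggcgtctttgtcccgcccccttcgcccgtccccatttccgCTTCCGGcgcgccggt
Ndufv2: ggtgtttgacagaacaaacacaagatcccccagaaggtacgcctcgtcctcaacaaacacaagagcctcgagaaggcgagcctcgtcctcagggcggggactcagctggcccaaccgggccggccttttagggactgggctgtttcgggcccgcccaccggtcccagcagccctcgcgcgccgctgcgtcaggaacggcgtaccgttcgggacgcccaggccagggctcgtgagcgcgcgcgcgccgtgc
Sdhd: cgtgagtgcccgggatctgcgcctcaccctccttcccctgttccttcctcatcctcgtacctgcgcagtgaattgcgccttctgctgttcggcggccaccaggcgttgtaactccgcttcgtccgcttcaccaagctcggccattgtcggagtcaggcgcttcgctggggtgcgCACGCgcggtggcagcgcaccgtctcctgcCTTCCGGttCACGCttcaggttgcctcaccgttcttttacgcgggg

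Genes that work with the chain were read from lists at 30 µg/kg, where 18% of all genes tested were higher and 19.4% lower. Among 20 mobile carriers and ubiquinone genes, 3 rose and 7 fell (median log2 fold change -0.29, beside -0.01 over all genes). Coq8a, a kinase-like protein needed for ubiquinone synthesis, had 118 ± 41.1 CPM at 30 µg/kg and 606 ± 101 CPM in vehicle livers (SD, n = 3 each), a log2 fold change of -2.35 with an adjusted p of 5.15e-07 in edgeR. Etfdh, which feeds electrons from fatty acid oxidation into ubiquinone, had 163 ± 9.38 and 341 ± 4.55 CPM (log2 fold change -1.06, adjusted p = 5.23e-05). Sqor, which feeds in electrons from sulfide, fell by 0.98 on the log2 scale (adjusted p = 0.000234). Coq2, an early enzyme of ubiquinone synthesis, rose by 0.80 (adjusted p = 2.7e-05). Dhodh (-0.44, adjusted p = 0.0973) and Etfb (-0.45, adjusted p = 0.102) were not called.

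In the tricarboxylic acid cycle and its NADH supply 7 of 17 genes fell and none rose (median log2 fold change -0.36). They included Suclg2 (-0.85, adjusted p = 0.000441), Fh1 (-0.76, adjusted p = 0.00182), Idh3a (-0.90, adjusted p = 0.00231) and Idh3g (-0.70, adjusted p = 0.00262), all enzymes or subunits of the cycle, by edgeR. Dlat (-0.38, adjusted p = 0.0793) and Idh3b (-0.36, adjusted p = 0.134) were not called.

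Few assembly factors and nuclear ATP synthase genes were called, but 1 of them, Sco2, fell strongly. Of 16 complex I assembly genes 2 fell, Timmdc1 (-0.39, adjusted p = 0.0257) and Acad9 (-0.42, adjusted p = 0.0334), while Ndufaf3 (-0.49, adjusted p = 0.0527) and Ndufaf5 (-0.52, adjusted p = 0.0942) were not called. Of 10 for complexes II and III only Ttc19 rose (0.60, adjusted p = 0.00182), and Uqcc1 and Uqcc2 were not called. Of 23 for complex IV, Cox19 rose (0.55, adjusted p = 0.00806) and Sco2, a copper chaperone of cytochrome c oxidase, fell. Sco2 had 10.6 ± 4.05 CPM at 30 µg/kg and 54.4 ± 6.35 CPM in vehicle livers (SD, n = 3 each), a log2 fold change of -2.35 with an adjusted p of 4.76e-07 in edgeR. Cmc2 and Taco1 were not called. Of 18 nuclear ATP synthase genes, the inhibitor Atpif1 rose (0.63, adjusted p = 0.00765) and Atp5g1, a gene for the c subunit, fell (-0.70, adjusted p = 0.00941), while Atp5g2 and Atp5h were not called.

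Among genes that keep, copy and process mitochondrial nucleic acids, the list for DNA held falls only and the list for RNA both directions. Over all genes tested 18% were higher and 19.4% lower. Of 19 for mitochondrial DNA and its transcription, 4 fell and none rose (median log2 fold change -0.21): Dguok (-0.75, adjusted p = 0.00616), Mgme1 (-0.56, adjusted p = 0.0174), Polrmt, the mitochondrial RNA polymerase (-0.50, adjusted p = 0.0178), and Tefm, its elongation factor (-0.40, adjusted p = 0.0276). Rrm2b and Polg were not called. Of 17 for mitochondrial RNA, Rexo2 (0.58, adjusted p = 0.00441) and Grsf1 (0.47, adjusted p = 0.0118) rose, and Mtpap (-0.43, adjusted p = 0.034) and Hsd17b10 fell. Hsd17b10, a subunit of the enzyme that trims tRNAs out of mitochondrial transcripts and a dehydrogenase in its own right, had 48.3 ± 11.4 CPM at 30 µg/kg and 124 ± 6.72 CPM in vehicle livers (SD, n = 3 each). Its log2 fold change was -1.36, with an adjusted p of 9.07e-07 in edgeR. Fastk and Fastkd1 were not called.

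Of 14 regulators of mitochondrial biogenesis, 2 rose and 3 fell, beside 18% of all genes tested higher and 19.4% lower. Esrrg, an orphan nuclear receptor, had 20.4 ± 5.43 CPM at 30 µg/kg and 5.0 ± 2.01 CPM in vehicle livers (log2 fold change 2.04, adjusted p = 0.000686 in edgeR, SD, n = 3 each). Ppara, the receptor that drives fatty acid oxidation genes (-1.18, adjusted p = 0.00138), the deacetylase Sirt3 (-0.98, adjusted p = 0.000615) and Hcfc1 (-0.75, adjusted p = 0.00127) fell. The gene Nrf1 itself (-0.43, adjusted p = 0.0519) and Yy1 (-0.35, adjusted p = 0.103) were not called. Of 77 mitochondrial ribosomal protein genes 6 rose and 11 fell (median log2 fold change -0.09), and of 78 cytosolic ones 7 rose and 1 fell (median 0.27).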

How the data were processed

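Libraries were made from TRIzol-extracted liver RNA with the TruSeq RNA kit of Illumina, as the labels' protocols state. Each deposited file holds raw counts per gene, made by the authors with HTSeq 0.6.1, per the submitters' processing notes, which also name FastQC 0.11.2, cutadapt 1.4.1, TopHat 1.4.1, SAMtools 0.1.19 and DESeq. The build is GRCm38. Neither the strand setting of HTSeq nor its annotation is named in the sources at hand. The summary lines of HTSeq were set aside before totals were formed. Reads outside genes were 5.62% to 11.9% and ambiguous reads 1.79% to 3.49% of uniquely aligned reads.

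Counts were analysed with edgeR 4.0.16 in R 4.3.3: filterByExpr with the groups (minimum of 10 counts), TMM factors and a robust quasi-likelihood fit over 27 libraries. The fit was also run on simulated counts. P-values were adjusted by Benjamini-Hochberg over 15121 genes. The standard error is the size of the log2 fold change divided by the square root of F. Symbols, coordinates and the 50-base words come from the GENCODE annotation and transcripts of GRCm38. Alternatives were RLE and upper-quartile factors, totals without mitochondrial genes, no filter, DESeq2 1.42.0, a replicate block, the 6 libraries of a comparison alone, index-set subsets, and leaving out each library. The fit without the shallow 0.3 µg/kg library was chosen after its total was seen. Replicates of every group differed by more than sampling noise (lowest chi-square over its degrees of freedom: 6.07).

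The members, gene lists and rules were chosen with earlier results of these data known. Named genes are every mitochondrial and Sdh member, the complex IV tissue isoforms with their common partners, per nuclear complex the 5 largest called changes each way at 30 µg/kg, 3 at other doses and the 3 smallest p in the dose rank, and per list up to 4 called and 2 uncalled genes. In the other lists at 30 µg/kg, 1 of 9 macrophage markers was higher and 1 lower, 1 of 5 endothelial markers was lower, 0 of 5 erythroid markers were called by edgeR (0 at an unadjusted p below 0.05), 1 of 2 brown fat markers was higher and 1 lower, 1 of 2 muscle markers was lower, and 1 of 10 library-state RNAs was higher. The summed muscle markers were 136 CPM in the third vehicle liver and at most 0.112 CPM in the other vehicle livers.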

Additional observations from a re-analysis of the deposited data

How the results depend on the processing

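Among the alternatives to the comparison of counts, 761 values of single members were recomputed: 583 kept direction and call, 148 lost the call, 7 gained one and 23 changed sign. Of the counts of called members, the 3 at 1 µg/kg became 1 with RLE factors, 1 with upper-quartile factors and 0 with the 6 libraries alone, and 0 to 3 when a library was left out. All genes called there numbered 2839 and 2855 of 15121 with these factors and 1591 of 14086 with the 6 libraries alone. The 1 at 10 µg/kg became 2 without a filter and 2 with the 6 libraries alone, and 0 to 1 when a library was left out. Beside them stood 2881 of 24430 genes without a filter and 3904 of 14333 with the 6 libraries alone. At 0.3 and 3 µg/kg, leaving out a library gave 0 to 1. The 7 at 30 µg/kg ranged from 3 (without the first or the third 30 µg/kg library) to 12 (without the second), and were 9 without the shallow 0.3 µg/kg library. In that last fit 5915 of 15555 genes were called. The 13 over the dose rank became 8 with RLE factors, 5 with upper-quartile factors, 8 with totals and TMM without mitochondrial genes, 1 in the 0.3 to 10 µg/kg libraries, 6 without the 30 µg/kg libraries, and 6 to 15 when a library was left out. All genes called with the first 3 of these settings numbered 6886, 6865 and 6950 of 15121. With library totals alone the log2 ratio of the sums at 30 µg/kg was 0.25 (mitochondrial) and 0.35 (nuclear). Leaving out a library gave -0.25 to -0.07 and -0.18 to 0.06. With RLE or upper-quartile factors the mean nuclear sum was also above that of vehicle livers, and the mitochondrial one below. For complex II the log2 ratio was 0.052 with totals alone and -0.44 to -0.29 when a library was left out.

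Signs changed mostly for members near 0. At 30 µg/kg Cox6b1 had 0.039 with RLE factors, 0.041 with upper-quartile factors and 0.039 in DESeq2, Cox7a1 had 0.073, 0.079 and 0.066, and Cox7b had 0.032, 0.034 and 0.032 in the same order. Sdhd over the dose rank, a called fall of -0.08 per step, had 0.0026 in the 0.3 to 10 µg/kg libraries (adjusted p = 0.992 in edgeR). Leaving out a library gave -0.20 to 0.65 for mt-Nd6, -0.062 to 0.075 for mt-Co1, -0.18 to 0.095 for Cox6b1, -0.32 to 0.35 for Cox7a1, -0.14 to 0.34 for Cox7a2, -0.21 to 0.084 for Cox7b and -0.35 to 0.073 for Cox8a. The cause of these changes was not tested.

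The replicate numbers did not pair the libraries: the correlation of same-numbered libraries had a median of 0.018, and 10 of 27 libraries correlated best with their own number. With the replicate block 8 members were called at 30 µg/kg and 15 over the dose rank, beside 5638 and 6990 of 15121 genes. Depth limits the shallow 0.3 µg/kg library.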
